A study of Homo sapiens with 12 samples.

Results

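The genes described here are CADPS2 and 8 partners in regulated exocytosis, namely CADPS, STX1A, STXBP2, UNC13B, UNC13D, SYTL1, SYTL2 and SNAP25. They were chosen by symbol from the 28278 gene rows of a bulk mRNA-seq count matrix. CADPS2 and STX1A were picked for their lower counts in HCQ-evolved cells, so all their values below, control levels included, are given as a description with no test. The other 7 members were taken for their role. In regulated exocytosis a vesicle is tethered and docked at the plasma membrane by RAB27 with its effectors, made ready for fusion ("primed") by CAPS and UNC13 proteins, and fused by SNARE proteins held by a Munc18 protein. The process is best known in neurons, endocrine cells and cytotoxic lymphocytes, and epithelial cells use the same families to release mucin and other cargo.

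Cells of the lines OVCAR3, described by the study as high-grade serous ovarian cancer, and CCL218, described as colorectal cancer, were passaged on plates that received 15 pulses of hydroxychloroquine (HCQ) of 48 h each, or no HCQ, and RNA was taken after 7 drug-free days. HCQ is a lysosomotropic drug that impairs lysosomal degradation. The labels give passage 15 for HCQ-evolved and passage 19 for control cells. Effects of passage and of HCQ therefore cannot be told apart where HCQ-evolved and control pools are compared. By their place on the plate, wells were pooled as L, M or R (left, middle, right). Each of the 4 groups (control OVCAR3, HCQ-evolved OVCAR3, control CCL218, HCQ-evolved CCL218) thus had 3 pools from 1 plate, so p-values measure the spread between pools of that plate.

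The 12 libraries held 31.1 to 60.0 M counts. Levels are given as TMM-normalized CPM, that is counts scaled to the size of the library, and 3 counts in a library, taken as the floor of detection, correspond to 0.0502 to 0.0942 CPM. Pools of both labels carried epithelial markers of both organs. PAX8 stood at 6.40 to 14.9 CPM and the intestinal lectin LGALS4 at 133 to 1369 CPM across all pools, while SOX17 had 0 counts throughout and KRT20 at most 4. The lines are named here by their labels. With edgeR, 431 of 12613 genes differed between the 2 control groups at an adjusted p under 0.05. HCQ-evolved and control pools differed in 227 of 12204 genes in OVCAR3 and 791 of 12241 in CCL218. Whether pools under the 2 labels come from distinct lines was not tested. The summed level of 10 intestinal markers was 907 to 1121 CPM in control and 225 to 648 CPM in HCQ-evolved OVCAR3, against 1105 to 1597 and 1154 to 1212 CPM in CCL218. The part of this shift in the OVCAR3 values below was not tested. Of 10 neuroendocrine markers, 9 were under 1 CPM in all pools, and chromogranin A (CHGA), the classic granule protein, had 0 counts.

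The plot of member levels by pool shows CADPS2 apart from the others. In control OVCAR3, CADPS2 stood at 1.93, 2.92 and 2.44 CPM in pools L, M and R. In HCQ-evolved OVCAR3 it stood at 0.175, 0.232 and 0 CPM. These levels rest on 300 counts over the 3 control pools and 22 over the HCQ-evolved pools, with 0 counts in pool R. In control CCL218 it stood at 5.16, 6.61 and 6.12 CPM, and in HCQ-evolved CCL218 at 0.267, 0.164 and 0.134 CPM (801 against 30 summed counts). No HCQ-evolved pool of either line came near a control pool.

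**Figure D1:**
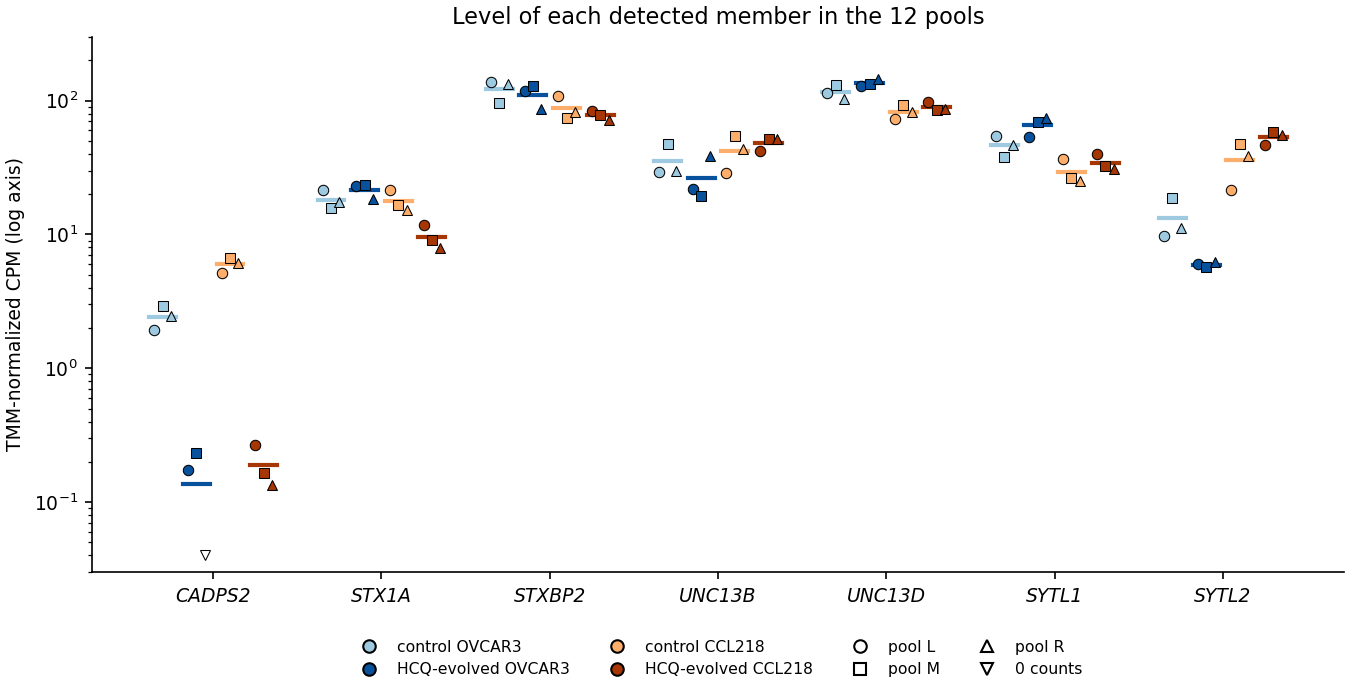
TMM-normalized CPM (log axis) of the 7 detected members in each pool, with the mean of each group as a bar and a pool of 0 counts as an open triangle at the foot of the plot. CADPS2 lies between 1.93 and 6.61 CPM in the control pools and at most at 0.267 CPM in the HCQ-evolved pools, while the other members keep within the range from 5.67 to 145 CPM.

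The sequences shown are the 250 bases before the start of STX1A, the other gene picked for lower levels, of CADPS, the paralog of CADPS2, and of AASS, a neighbour of CADPS2 described below. They are from RefSeq (GRCh38.p14), all on the minus strand, printed 5′ to 3′, with each GC box (GGGCGG on either strand) in capitals. STX1A lies at chr7:73719670-73719919, CADPS at chr3:62875417-62875666 and AASS at chr7:122144250-122144499. The table held 5 of the 9 members.
STX1A: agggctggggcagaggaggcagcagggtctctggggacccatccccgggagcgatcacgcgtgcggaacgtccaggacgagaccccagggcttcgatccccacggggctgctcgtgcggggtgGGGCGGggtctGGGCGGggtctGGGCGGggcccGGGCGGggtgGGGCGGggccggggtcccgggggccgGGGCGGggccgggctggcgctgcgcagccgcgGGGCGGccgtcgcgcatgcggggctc
CADPS: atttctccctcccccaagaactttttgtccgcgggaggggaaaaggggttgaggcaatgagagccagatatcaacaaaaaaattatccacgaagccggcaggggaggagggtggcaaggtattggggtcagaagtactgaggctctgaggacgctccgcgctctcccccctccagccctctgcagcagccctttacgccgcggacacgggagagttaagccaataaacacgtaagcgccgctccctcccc
AASS: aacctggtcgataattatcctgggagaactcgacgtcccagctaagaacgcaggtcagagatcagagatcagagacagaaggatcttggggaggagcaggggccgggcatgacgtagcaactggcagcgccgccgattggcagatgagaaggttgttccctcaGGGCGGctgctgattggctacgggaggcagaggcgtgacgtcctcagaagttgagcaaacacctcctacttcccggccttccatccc
The STX1A sequence held 7 GC boxes, a count reached by 1.12% of the 35116 promoter sequences in the table, and 80.8% of its bases were G or C. The CADPS and AASS sequences, each 58% G or C, held 0 and 1 GC box. By comparison, 42.6% of all promoter sequences held at least 1. The E-box CACGTG was in none of these 3 sequences and in 6.35% of all. A GC box is the short motif that Sp1 and related factors bind, and a match of letters is not a site in use.

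CADPS2 (ENSG00000081803, chromosome 7, 122318411 to 122886759, minus strand, GENCODE 44 on hg38) encodes a CAPS protein, which primes dense-core vesicles through the phosphoinositide PIP2 and syntaxin. Its fitted log2 fold change was -4.16 (SE 0.75) in OVCAR3 and -4.99 (SE 0.30) in CCL218, a level 17.9-fold and 31.9-fold lower. The mean level was 2.43 ± 0.494 CPM in control and 0.135 ± 0.121 CPM in HCQ-evolved OVCAR3 (SD, n = 3), and 5.97 ± 0.740 against 0.188 ± 0.0698 CPM in CCL218. In both lines the gene passed the filter on low counts (1 CPM in at least 3 libraries) only through its control pools, so it had to differ there. Cells that lost the transcript and less transcript per cell cannot be told apart in a pool. Its paralog CADPS (ENSG00000163618, chromosome 3, 62398346 to 62875416, minus strand), the CAPS protein of neurons and chromaffin cells, had 0 or 1 counts in each pool of OVCAR3 and control CCL218. In HCQ-evolved CCL218 it had 3, 2 and 0 counts. CADPS was thus at or under the floor in every pool, those with lower CADPS2 included, and was not tested.

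The UNC13 proteins prime vesicles by opening syntaxin. UNC13D (ENSG00000092929, chromosome 17, 75827225 to 75844785, minus strand), which lymphocytes need to release lytic granules, stood at 114, 131 and 103 CPM in control and 129, 133 and 145 CPM in HCQ-evolved OVCAR3. Control pools of CCL218 held 72.8, 92.1 and 82.2 CPM and HCQ-evolved pools 98.4, 84.4 and 86.0 CPM. The groups overlapped in both lines. The log2 fold change was 0.24 (SE 0.17, adjusted p = 0.550) in OVCAR3 and 0.12 (SE 0.14, adjusted p = 0.612) in CCL218 by edgeR's quasi-likelihood test with Benjamini-Hochberg adjustment over all genes, the test behind every adjusted p below unless another is named.

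UNC13B (ENSG00000198722, chromosome 9, 35161992 to 35405338, plus strand), a widely expressed UNC13, stood at 29.1, 47.0 and 29.8 CPM in control and 21.7, 19.2 and 38.9 CPM in HCQ-evolved OVCAR3. In CCL218 it stood at 28.6, 54.2 and 43.7 CPM in control and 42.3, 51.8 and 51.8 CPM in HCQ-evolved pools. Pools of 1 group differed more than the groups did. The log2 fold change was -0.39 (SE 0.34, adjusted p = 0.629) in OVCAR3 and 0.20 (SE 0.23, adjusted p = 0.609) in CCL218.

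Libraries differed in how counts spread over short and long transcripts. For each pool the Spearman correlation across genes between transcript length and the deviation of log2 CPM from the line's mean (length rho) was taken as a description, and it ran from -0.51 to 0.58. The UNC13B transcript is 14.6 kb long, the longest of the members. Its highest pools, control M (47.0 CPM) and HCQ-evolved R (38.9 CPM) in OVCAR3 and control M (54.2 CPM) in CCL218, were the pools of those groups with the highest length rho, 0.55, 0.58 and 0.48. STXBP2, with a transcript of 1.89 kb, was lowest of its group in the same 3 pools. The part of the length trend in these differences was not tested gene by gene, and values with the trend removed are given where they change a call.

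**Figure D2:**
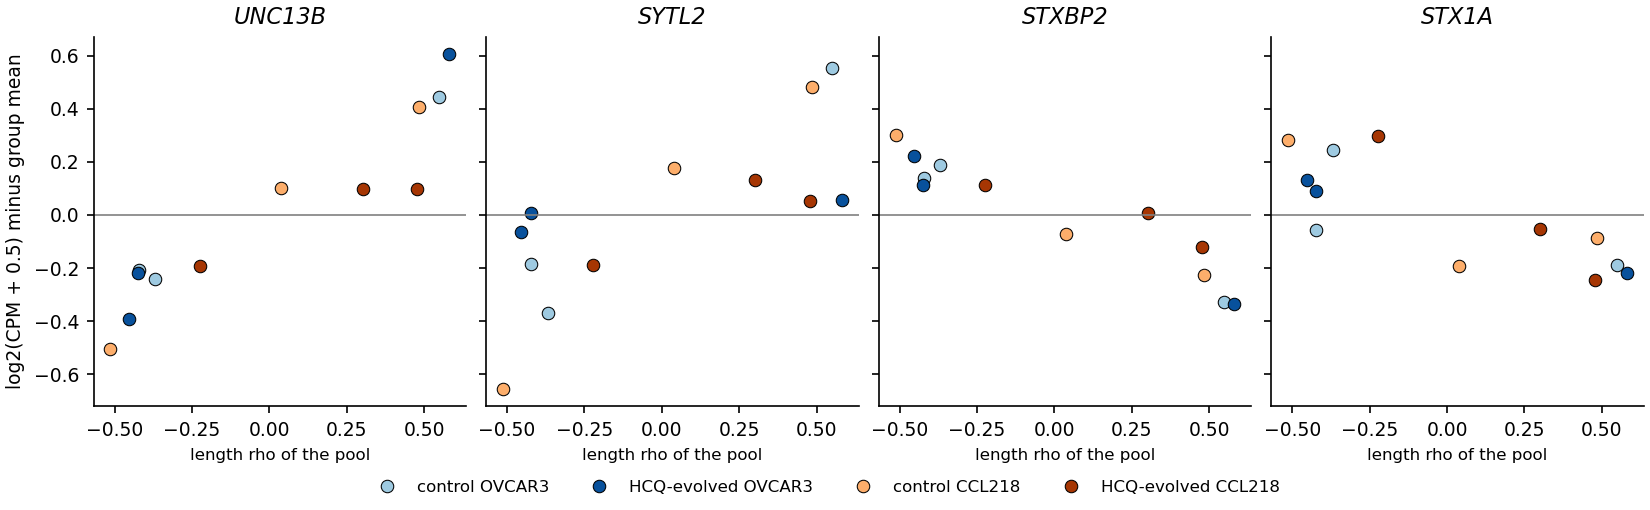
Deviation of log2(CPM + 0.5) from the group mean (vertical axis) against the length rho of the pool (horizontal axis) for 4 members, 1 point per pool, coloured by group. The long UNC13B transcript (14.6 kb) lies highest in pools of high length rho and the short STXBP2 transcript (1.89 kb) lowest there.

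STX1A (ENSG00000106089, chromosome 7, 73699206 to 73719672, minus strand) encodes syntaxin 1A, the plasma membrane SNARE that CAPS and UNC13 proteins act on. In CCL218 it stood at 21.4, 16.5 and 15.3 CPM in control pools and 11.8, 9.13 and 7.91 CPM in HCQ-evolved pools. No HCQ-evolved pool reached the lowest control pool, and the log2 fold change was -0.89 (SE 0.20), 1.85-fold lower. In OVCAR3 it stood at 21.5, 15.8 and 17.4 CPM in control and 22.9, 23.6 and 18.4 CPM in HCQ-evolved pools, with a log2 fold change of 0.27 (SE 0.20). The OVCAR3 groups overlapped, so the lower level was seen in CCL218 pools and not in OVCAR3 pools. The difference between the log2 fold changes, CCL218 minus OVCAR3, was -1.13 (SE 0.28) for STX1A and -0.82 (SE 0.86) for CADPS2, given without a test since both genes were picked for these values.

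SNAP25 (ENSG00000132639, chromosome 20, 10172395 to 10308258, plus strand), the neuronal SNARE that pairs with syntaxin 1A, had 2 counts in control OVCAR3 pool L and 0 in the other 11 pools. STXBP2 (ENSG00000076944, chromosome 19, 7636772 to 7647873, plus strand) encodes Munc18-2, the Munc18 protein of epithelia and blood cells, and had the highest level per length of the members. It stood at 137, 95.5 and 132 CPM in control and 118, 128 and 86.5 CPM in HCQ-evolved OVCAR3. The CCL218 values were 108, 74.4 and 82.9 CPM in control and 84.2, 78.1 and 71.4 CPM in HCQ-evolved pools. The groups overlapped in both lines, with log2 fold changes of -0.12 (SE 0.22, adjusted p = 0.840) in OVCAR3 and -0.18 (SE 0.17, adjusted p = 0.513) in CCL218.

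SYTL1 and SYTL2 encode synaptotagmin-like proteins, effectors that link RAB27 on the vesicle to the plasma membrane. SYTL2 (ENSG00000137501, chromosome 11, 85694224 to 85811159, minus strand) stood at 9.69, 18.8 and 11.1 CPM in control and 5.97, 5.67 and 6.21 CPM in HCQ-evolved OVCAR3. All HCQ-evolved pools were below all control pools. In CCL218 it stood at 21.4, 47.7 and 38.5 CPM in control and 46.4, 58.1 and 54.9 CPM in HCQ-evolved pools, where the M control pool overlapped the HCQ-evolved ones. The log2 fold change was -1.14 (SE 0.29, adjusted p = 0.103) in OVCAR3 and 0.56 (SE 0.28, adjusted p = 0.255) in CCL218, so neither passed.

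These SYTL2 values sat close to the threshold and depended on the method. In OVCAR3 the adjusted p was 0.00604 by DESeq2's Wald test, 0.0359 when all 12 libraries shared 1 edgeR fit and 0.0234 once the trend of length and GC content was removed. Over all genes these settings called 1105, 1165 and 1062, against 227 in the main fit. In CCL218 the fit with a replicate block for plate position gave a log2 fold change of 0.63 with an adjusted p of 0.0463 (edgeR). That fit called 1744 genes in all, against 791. Whether position paired the pools was not tested apart from the length trend. The difference between the lines, CCL218 minus OVCAR3, was 1.71 (SE 0.42, adjusted p = 0.0976, edgeR interaction), and its adjusted p was 0.00606 by DESeq2 and 0.00727 with the trend removed. For this difference both settings also called more genes over all than the main fit, which called 110.

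SYTL1 (ENSG00000142765, chromosome 1, 27342020 to 27353937, plus strand) stood at 54.3, 37.7 and 46.9 CPM in control and 53.8, 68.8 and 74.3 CPM in HCQ-evolved OVCAR3. The CCL218 values were 36.4, 26.5 and 25.1 CPM in control and 39.9, 32.5 and 31.0 CPM in HCQ-evolved pools. The log2 fold change was 0.53 (SE 0.21, adjusted p = 0.280) in OVCAR3 and 0.23 (SE 0.19, adjusted p = 0.472) in CCL218. The groups overlapped in both lines. In CCL218 the adjusted p was 0.0233 with the length and GC trend removed (log2 fold change 0.43) and 0.0385 without control pool L (0.41). Over all genes these settings called 2368 and 3047, against 791 in the main fit.

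**Figure D3:**
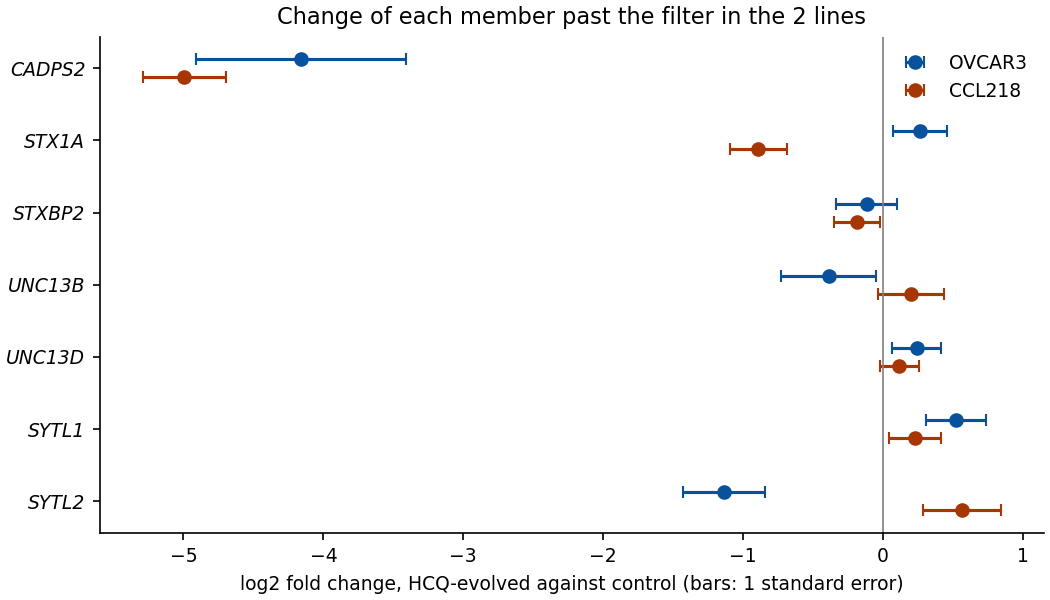
Log2 fold change of HCQ-evolved against control pools (horizontal axis) for the 7 members that passed the filter in each line, with bars of 1 standard error. CADPS2 lies at -4.16 and -4.99, STX1A at -0.89 in CCL218, SYTL2 at -1.14 in OVCAR3 and 0.56 in CCL218, and the remaining values between -0.39 and 0.53.

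Of the 7 members not picked for their counts, 5 passed the filter on low counts, and 0 passed the test in either line by edgeR. Among all genes tested, 0.647% were called higher and 1.21% lower in OVCAR3, and 3.82% and 2.64% in CCL218. At an unadjusted p under 0.05, 2 of the 5 (SYTL1 and SYTL2) passed in OVCAR3 and 0 in CCL218. DESeq2 called 1 (SYTL2) in OVCAR3 and 0 in CCL218, where it called 9.05% and 17.7% of all genes, and limma voom called 0 in both. The median log2 fold change of the 5 was -0.12 in OVCAR3 and 0.20 in CCL218, beside 0.02 and -0.02 over all genes tested. HCQ-evolved and control pools did not overlap for 1 of the 5 in OVCAR3 and 0 in CCL218, against 25.7% and 36.0% of all genes. In the interaction 0 of the 5 passed by edgeR (1 by DESeq2, SYTL2, and 1 at an unadjusted p under 0.05), where 0.872% of all genes passed by edgeR. DESeq2 called more genes over all there than edgeR did.

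Levels of different genes were set side by side only per length, as CPM per kilobase of the canonical transcript. In control OVCAR3, STXBP2 led with a mean of 64.4 CPM per kb (50.7 to 72.5), followed by UNC13D (28.5 ± 3.50, SD, n = 3) and SYTL1 (23.9 ± 4.29), whose pools overlapped. STX1A came next at 8.67 ± 1.40 CPM per kb, then UNC13B at 2.42 ± 0.697 and SYTL2 at 1.60 ± 0.596, which overlapped each other. CADPS2 was lowest of the members above the floor at 0.422 ± 0.0856 CPM per kb. In control CCL218 the order was the same except that SYTL2 (4.34 ± 1.61) stood above UNC13B (2.89 ± 0.880), again with overlapping pools. In HCQ-evolved CCL218, SYTL2 (6.43 ± 0.732 CPM per kb) stood above STX1A (4.57 ± 0.937), the reverse of their order in control CCL218. The lowest SYTL2 pool was at 5.614 and the highest STX1A pool at 5.595 CPM per kb. STX1A was picked for its lower level there, so this order is a description only.

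Between control CCL218 and control OVCAR3, SYTL2 was the member that passed, with a log2 difference of 1.44 (SE 0.30, adjusted p = 0.0216, edgeR), 2.72-fold higher in CCL218. That is 1 of the 5 members not picked, where 3.42% of all genes were called. The call was lost without control OVCAR3 pool L (adjusted p = 0.103) or R (0.121) and without control CCL218 pool M (0.101) or R (0.0887), all by edgeR. UNC13D differed by -0.50 (SE 0.14, adjusted p = 0.0916) and SYTL1 by -0.66 (SE 0.20, adjusted p = 0.126), and both passed under DESeq2 (0.0148 and 0.0320). DESeq2 also called more genes over all between the control groups than the main fit, which called 431. CADPS2 was 2.46-fold higher in control CCL218 as a description.

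The wider machinery was followed in a list of 101 other exocytosis genes, 55 of them tested in OVCAR3 and 57 in CCL218. In OVCAR3 1 gene was lower and 0 higher, and in CCL218 3 were higher and 2 lower. Of these 6 calls, RIMBP2 in OVCAR3 and RAB3B in CCL218 passed the filter only through their control pools and so had to differ, and nothing is read from the counts. With no filter 4 list genes passed in each line (2 higher and 2 lower), where 549 genes in all passed in OVCAR3 and 1005 in CCL218. The list's median log2 fold change was 0.13 in OVCAR3 and 0.05 in CCL218. Pools did not overlap for 18 of 55 genes (32.7%) in OVCAR3 and 19 of 57 (33.3%) in CCL218, near the shares of all genes above. With the replicate block, 11 list genes passed in CCL218, while the calls over all genes went from 791 to 1744 (14.2% of the genes tested).

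RIMBP2, a RIM-binding scaffold of vesicle release sites, fell in OVCAR3. It stood at 1.93, 2.01 and 1.94 CPM in control and 0.0349, 0.154 and 0.0669 CPM in HCQ-evolved pools, on 2 to 8 counts per HCQ-evolved pool. The log2 fold change was -4.49 (SE 0.47). Like CADPS2 it passed the filter only through its control pools, so the p of that fit is not used, and without any 1 of them it was not tested. With no filter the adjusted p was 0.000241 (edgeR, log2 fold change -4.45). In CCL218 it stood at 1.47, 1.54 and 1.17 CPM in control and 1.17, 0.765 and 1.10 CPM in HCQ-evolved pools, with a log2 fold change of -0.47 (SE 0.26, adjusted p = 0.307). The CCL218 groups did not overlap, with a highest HCQ-evolved pool of 1.170 and a lowest control pool of 1.174 CPM. The lines differed by 4.04 (SE 0.52, adjusted p = 0.00474, or 0.00119 with no filter, edgeR interaction), but this missed the threshold with the replicate block (adjusted p = 0.0584).

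RAB3B, a RAB3 GTPase that docks secretory vesicles, fell in CCL218. It stood at 1.52, 2.22 and 1.79 CPM in control pools and 0, 0.292 and 0.10 CPM in HCQ-evolved pools, with a log2 fold change of -3.77 (SE 0.69). It too passed the filter only through its control pools, and with no filter the adjusted p was 0.00281 (edgeR, log2 fold change -3.74). The p of the filtered fit is not read as support, and its adjusted value was 0.0526 and 0.136 without HCQ-evolved pool M or R. In OVCAR3 RAB3B had 10 to 18 counts per control pool and 4 to 6 per HCQ-evolved pool, under the filter. STXBP4, a syntaxin-binding protein, also fell in CCL218, from 14.5, 17.5 and 15.1 CPM to 7.84, 7.32 and 10.2 CPM (log2 fold change -0.89, SE 0.17, adjusted p = 0.0302). In OVCAR3 its log2 fold change was -1.31 (SE 0.28, adjusted p = 0.0640, or 0.0278 with no filter), with pools apart as well.

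The 3 genes that rose in CCL218 were VAMP4, SYT12 and SYT17. VAMP4, a vesicle SNARE of the trans-Golgi network and endosomes, stood at 6.22, 6.42 and 7.64 CPM in control and 10.4, 10.7 and 10.3 CPM in HCQ-evolved pools (log2 fold change 0.63, SE 0.14, adjusted p = 0.0471). SYT12, a synaptotagmin, stood at 0.786, 1.31 and 1.07 CPM in control and 2.83, 2.33 and 3.93 CPM in HCQ-evolved pools (log2 fold change 1.52, SE 0.30, adjusted p = 0.0312). Its OVCAR3 value was 0.95 (SE 0.25, adjusted p = 0.103). SYT17 stood at 1.28, 0.827 and 1.09 CPM in control and 4.06, 3.35 and 2.44 CPM in HCQ-evolved CCL218 (log2 fold change 1.62, SE 0.28, adjusted p = 0.0213). Of the CCL218 pools, 3 HCQ-evolved and 2 control pools of each of SYT12 and SYT17 reached 1 CPM, and with no filter the adjusted p was 0.00920 for SYT12 and 0.00355 for SYT17.

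SYT17 went the other way in OVCAR3, with 2.11, 1.57 and 1.42 CPM in control and 0.699, 0.772 and 0.234 CPM in HCQ-evolved pools. In OVCAR3 it passed the filter only through its control pools, so it had to differ there and the lower level is not read as a result. That log2 fold change was -1.57 (SE 0.45, adjusted p = 0.131), and with no filter -1.53 (adjusted p = 0.0964). The difference between the lines was 3.21 (SE 0.56, adjusted p = 0.0249, or 0.00631 with no filter, edgeR interaction). With the replicate block the adjusted p of the difference was 0.0676. In CCL218 the calls of VAMP4 and STXBP4 were lost without control pool M or R or any HCQ-evolved pool (adjusted p up to 0.224 and 0.187), and that of VAMP4 also with no filter (0.0534) and with the length and GC trend taken out (0.0726). SYT12 lost its call without control pool R or any HCQ-evolved pool (up to 0.127), and SYT17 without control pool M or R or HCQ-evolved pool L or M (up to 0.115). The difference of SYT17 between lines had an adjusted p from 0.00850 to 0.0847 with 1 library left out. All these values are from edgeR.

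**Figure D4:**
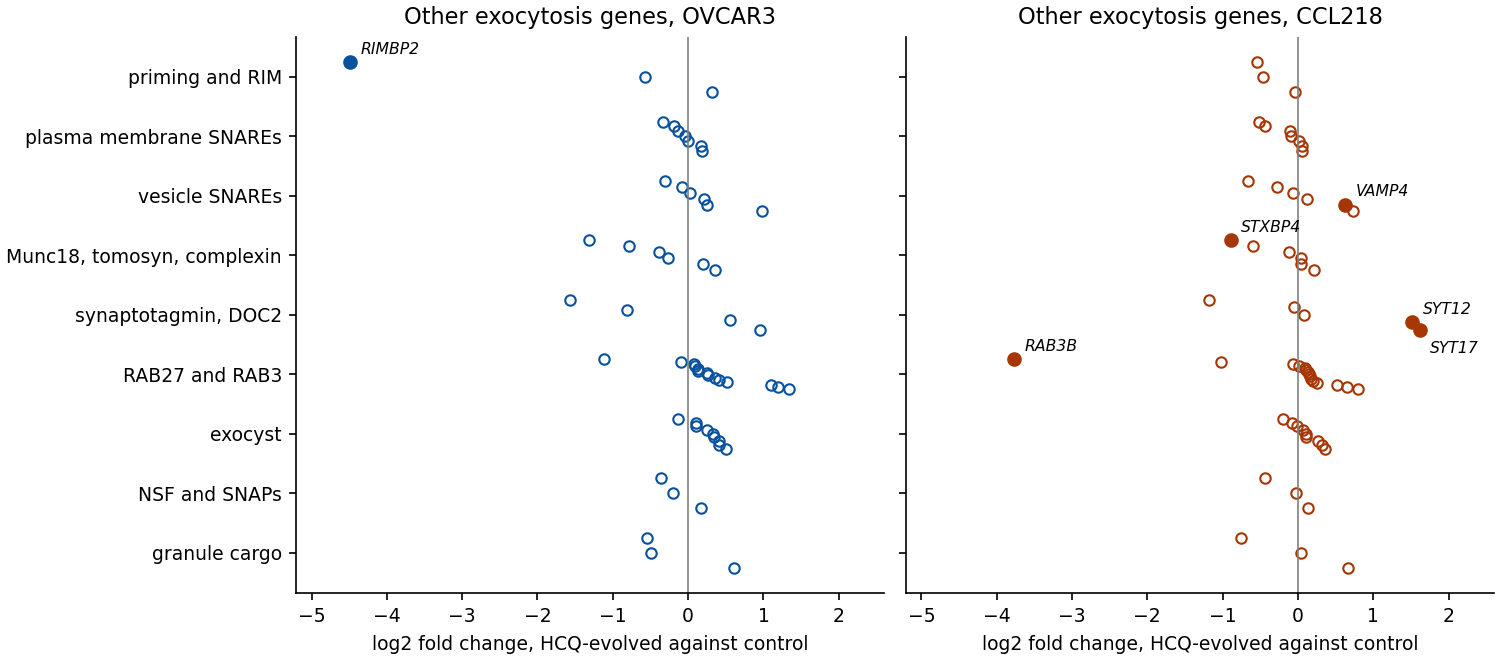
Log2 fold change of HCQ-evolved against control pools (horizontal axis) for the other exocytosis genes tested, 55 in OVCAR3 and 57 in CCL218, in rows by role. Filled points with names had an adjusted p under 0.05. RIMBP2 (-4.49) and RAB3B (-3.77) lie far from the rest.

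By role, the exocyst, the complex that tethers vesicles to the plasma membrane, had all 9 genes tested and 0 called, with log2 fold changes from -0.14 to 0.50 in OVCAR3 and -0.20 to 0.36 in CCL218. Of 9 plasma membrane SNAREs other than the members, 7 were tested and 0 called in either line. Of 19 synaptotagmins and DOC2 proteins, families that include the calcium sensors of fusion as well as members that do not bind calcium, 4 were tested in OVCAR3 and 5 in CCL218. Of 14 granule cargo genes, 3 were tested and 0 called in either line. NSF, the ATPase that takes SNARE complexes apart in every cell, had 0 to 9 counts per pool, and the endosomal SNARE VAMP7 had 0 to 2. A count near 0 in this matrix can therefore belong to a gene that cells use, and whether this holds for CADPS or SNAP25 was not tested.

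Genes near CADPS2 and STX1A were then read for changes of the region. Both genes lie on chromosome 7. From single-cell RNA-seq the study inferred that gains of this chromosome were selected in HCQ-evolved OVCAR3 cells, and did not name it for CCL218. The part of such gains in the values below was not tested. Within 1 Mb of CADPS2, 18 genes were in the matrix, of which 3 were tested in OVCAR3 and 4 in CCL218. AASS, the enzyme that starts lysine degradation, begins 742 kb from the start of CADPS2. It stood at 2.41, 1.39 and 1.28 CPM in control and 0.164, 0.0729 and 0.134 CPM in HCQ-evolved CCL218, a log2 fold change of -3.76 (SE 0.43). These control pools alone carried it past the filter, and with no filter the adjusted p was 0.000251 (edgeR, log2 fold change -3.71). In OVCAR3 it was under the filter, at 0.773, 0.565 and 0.444 CPM in control and 0.489, 0.309 and 0.285 CPM in HCQ-evolved pools, where CADPS2 was lower too. The difference between the lines was -3.05 (SE 0.59), with an adjusted p of 0.0307 with no filter (edgeR interaction in 1 fit of all libraries). AASS entered the filtered fit of all libraries only through the control CCL218 pools, so p-values of that fit are not read as support. With 1 library left out of the filtered fit the adjusted p of the difference ran from 0.0295 (the HCQ-evolved OVCAR3 pool R) to 0.134 (the HCQ-evolved CCL218 pool M). With the replicate block it was 0.0848. Without any 1 control CCL218 pool neither AASS nor RAB3B was tested in that line.

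The other tested neighbours of CADPS2 did not pass. FAM3C, a secreted protein gene beyond AASS, had a log2 fold change of 0.78 (SE 0.21, adjusted p = 0.112) in OVCAR3 and 0.09 (SE 0.16, adjusted p = 0.738) in CCL218. NDUFA5, of respiratory complex I, had 0.06 and -0.39 and the actin regulator WASL 0.30 and 0.20. The genes RNF133 and RNF148, which lie inside CADPS2, had at most 4 and 2 counts in a pool.

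Within 1 Mb of STX1A, in a gene-rich region, 35 genes were in the matrix. In CCL218, 6 of 22 tested neighbours had a log2 fold change above 0, with a median of -0.18, beside 48.3% of all genes tested. In OVCAR3 17 of 23 did, with a median of 0.22, beside 51.6% of all genes. In CCL218 1 neighbour passed, CLIP2, a microtubule-binding protein, which rose from 74.6, 79.3 and 79.7 CPM to 126, 130 and 140 CPM (log2 fold change 0.76, SE 0.11, adjusted p = 0.0121, edgeR). Its call was lost without control pool R or any HCQ-evolved pool (adjusted p up to 0.0987). In OVCAR3 0 neighbours of either gene passed by edgeR, against 1 (FAM3C) by DESeq2. The mitochondrial chaperone gene DNAJC30, 36.2 kb from the start of STX1A, had -0.75 (SE 0.19, adjusted p = 0.0659) in CCL218, and with the replicate block 4 neighbours passed there (AASS, NSUN5, DNAJC30 and CLIP2). Several genes of this region (GTF2I, NSUN5, POM121, STAG3L3) have near-identical copies elsewhere, so their counts are uncertain.

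**Figure D5:**
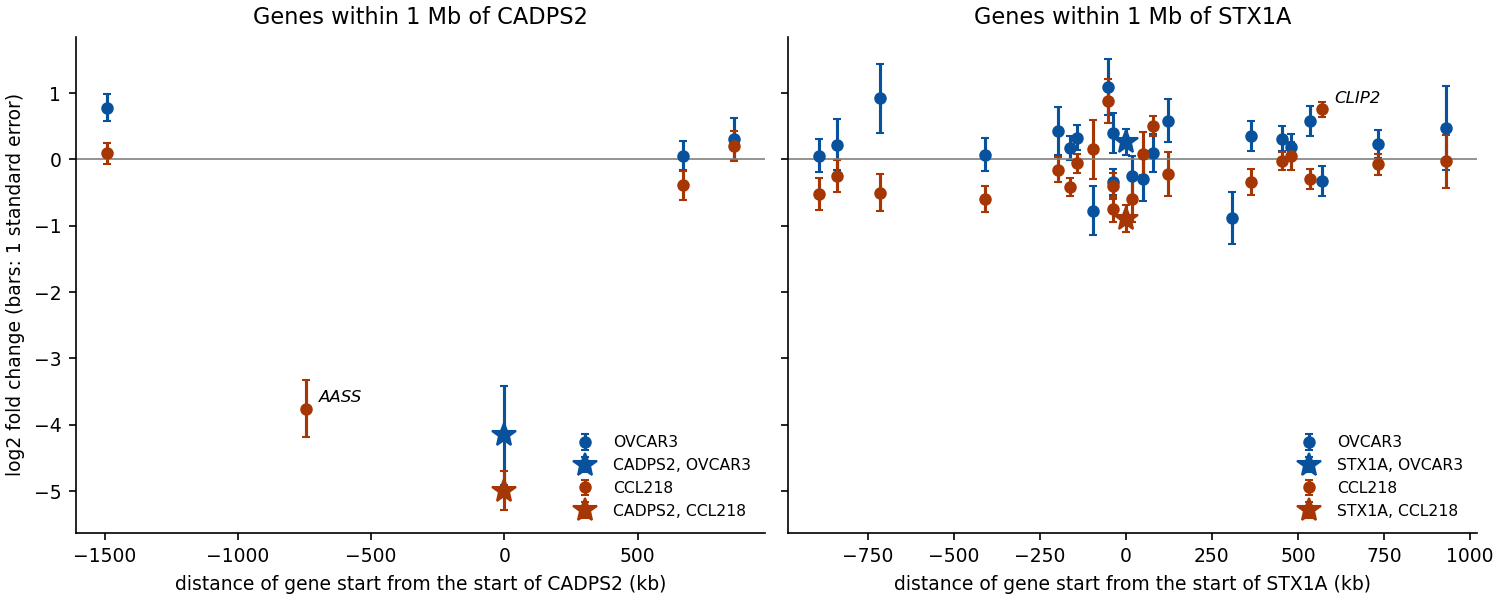
Log2 fold change with 1 standard error (vertical axis) of the tested genes within 1 Mb of CADPS2 (left) and STX1A (right), against the distance of each gene's start from the start of that gene in kb. Stars mark CADPS2 and STX1A. AASS (-3.76), which passed the filter only through its control pools, and CLIP2 (0.76) are named in CCL218, and the neighbours of CADPS2 on its other side lie between -0.39 and 0.30.

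The genes with the profile most like CADPS2 over the 12 libraries, by root mean square (RMS) difference of centred log2 CPM among 12613 genes, were SLC14A1 (0.49), DKK1 (0.61), CSPG4 (0.62), ZBTB10 (0.63) and CLEC3A (0.65). SLC14A1, a urea transporter, had log2 fold changes of -3.08 in OVCAR3 and -2.71 in CCL218, and DKK1, a secreted Wnt inhibitor, -1.65 and -1.99. None of the 5 had a fold change as large as that of CADPS2 in either line. The genes most like STX1A were RPS6KA4 (0.16), PSPC1 (0.16), NAP1L4 (0.16), RTN2 (0.16) and TUSC8 (0.18). Their log2 fold changes lay from -1.24 to -0.51 in CCL218 and from -0.03 to 0.21 in OVCAR3, lower in CCL218 as for STX1A. These likenesses follow from the values that picked both genes and share all libraries.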

How the data were processed

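The authors deposited raw counts per gene for 28278 symbols. Per the labels and the study's methods, reads were aligned to hg38 with STAR, duplicates were removed and reads were counted with featureCounts. Versions, annotation and strand setting are not given in the sources used here. Of the entries from 1 to 4 counts, 78.9% were even. Each line was fitted alone in edgeR 4.0.16 (R 4.3.3) with TMM scaling, robust dispersion and legacy mode. Genes reaching 1 CPM in 3 or more libraries entered the quasi-likelihood F test, and an adjusted p (Benjamini-Hochberg) under 0.05 was a call. Each SE of a log2 fold change is its absolute value divided by the square root of the F statistic. The SE values of CADPS2 and STX1A thus follow from the contrasts that picked them and are a description only. The difference between lines and between control groups came from 1 fit of all 12 libraries. Alternatives included DESeq2 1.42.0 and limma 3.58.1 voom, and the scripts were tested on simulated data. Floors cover counting error only.

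The members, gene lists and tests were chosen with earlier results of these data known. Named genes are the members, list genes that passed in either line, tested genes within 1 Mb of CADPS2 or STX1A, and the 5 nearest profiles of each by RMS difference of log2(CPM + 0.5). Positions and transcript lengths came from GENCODE 44 on hg38, which matched 25490 symbols (90.1%). Deviations of CCL218 pools at the same plate position correlated at 0.578, 0.310 and 0.241 for L, M and R, all above 0.1. Those of OVCAR3 gave 0.452, -0.726 and -0.528. Control M with HCQ-evolved R gave 0.516 in CCL218 and 0.747 in OVCAR3. In each line these pools had the highest length rho of their groups (0.484 and 0.478 in CCL218, 0.549 and 0.581 in OVCAR3). Pairing by position was not tested apart from the length trend.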

Additional observations from a re-analysis of the deposited data

Results flagged for a closer look

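RIMBP2 was singled out because its change differed between the lines, by a log2 difference of 4.04 (CCL218 minus OVCAR3, adjusted p = 0.00474, edgeR interaction). With no filter the adjusted p was 0.00119. RIMBP2 passed the OVCAR3 filter only through its control pools, so its HCQ-evolved pools had to be lower there. In CCL218 its HCQ-evolved pools lay below its control pools as well. SYT17 differed by 3.21 (adjusted p = 0.0249, or 0.00631 with no filter, edgeR interaction), higher in 3 of 3 HCQ-evolved CCL218 pools. In OVCAR3 SYT17 passed the filter only through its control pools, so its lower HCQ-evolved pools there are not read as a result. AASS differed by -3.05, on at most 30 counts per pool in OVCAR3. It passed the filter only through the control CCL218 pools, and with no filter the adjusted p was 0.0307 (edgeR interaction). Groups of 3 pools were not searched for single outlying pools.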

How the results depend on the processing

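Values are counts of genes passing an adjusted p of 0.05, with edgeR unless another tool is named. Of the 5 tested members not picked for their counts, 1 passed in OVCAR3 under DESeq2, with all libraries in 1 fit and with the length and GC trend removed (SYTL2 each time, 0 otherwise), and 1 passed in CCL218 with the replicate block (SYTL2) and with the trend removed (SYTL1). For the difference between lines 1 passed under DESeq2 and with the trend removed (SYTL2). Between control groups 3 passed under DESeq2, against 1. Calls over all genes also rose under these settings, from 110 for the difference between lines and from 431 between control groups. Leaving out 1 library gave 0 in OVCAR3, 0 to 1 in CCL218 (1 without control pool L), 0 for the difference and 0 to 2 between control groups. Of the other exocytosis genes, 10 passed in OVCAR3 under DESeq2 and in 1 fit of all libraries, 4 with no filter and 7 with the trend removed, against 1, while calls over all genes went from 227 to 1105, 1165, 549 and 1062. Leaving out 1 library gave 0 (control pools L, M and R, with 3, 19 and 4 genes called in all) to 4 (HCQ-evolved pool R, with 557). In CCL218 12 passed under DESeq2 and 11 with the replicate block and with the trend removed, against 5, while calls over all genes went from 791 to 2172, 1744 and 2368. There leaving out 1 library gave 14 without control pool L, where 3047 genes in all were called. It gave 0 without control pool R (145 genes in all) or HCQ-evolved pool M (102). It gave 1 without control pool M (443), HCQ-evolved pool L (147) or HCQ-evolved pool R (143). Of the neighbours, 1 passed in OVCAR3 under DESeq2 and in 1 fit, 3 with the trend removed and 0 to 1 with 1 library left out. In CCL218 6 passed under DESeq2, 4 with no filter and with the replicate block, 7 with the trend removed and 0 (control pool R) to 8 (control pool L) with 1 library left out, against 2. Calls over all genes moved as given above, to 145 without control pool R and 3047 without control pool L.

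The difference between lines of CADPS2 went from -0.82 to 0.12 under limma voom and ran from -1.42 to -0.21 with 1 library left out. Some log2 values nearer 0 also changed sign. With the length and GC trend removed the control difference was 0.21 for STX1A and -0.078 for UNC13B, and the OVCAR3 value of VAMP4 was -0.012. With 1 library left out, the control difference of STX1A ran from -0.20 to 0.10, the OVCAR3 value of STXBP2 from -0.26 to 0.023, its difference between lines from -0.20 to 0.12, and the CCL218 value of UNC13B from -0.020 to 0.43. The fold change of CADPS2 ran from -4.76 to -3.57 (OVCAR3) and from -5.31 to -4.79 (CCL218) with 1 HCQ-evolved pool left out, it was below the filter with any control pool left out, and limma voom gave -5.04 in OVCAR3. The nearest 5 profiles by Pearson correlation shared 1 gene (CADPS2) and 2 genes (STX1A) with those by RMS difference. DESeq2 size factors, limma voom, filterByExpr and no robust dispersion moved none of these counts of genes by over 1.5 times. In OVCAR3, where same-position correlations were -0.726 for M and -0.528 for R, the replicate block moved the calls over all genes from 227 to 81. The causes of these shifts were not tested.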
